A study of Mus musculus with 3 samples.

Results

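Immunoglobulin constant region genes and their plasma cell partners were followed in polysomal RNA of mouse bone marrow cells: the kappa light chain constant gene Igkc, the heavy chain constant genes Ighm, Ighg1, Ighg2b, Ighg2c, Ighg3 and Igha, the joining chain gene Jchain and the chaperone gene Mzb1. These 9 genes were chosen by name, with earlier results of these data known, and all 9 were among the 48795 gene identifiers counted. Wild-type (WT) mice gave 2 libraries, called WT 1 and WT 2, and mice of the genotype Mat KO gave 1. Strain, age, sex, the number of mice behind each library and the exact allele of Mat KO were not stated in the labels. The title of the series names the imprinted Dlk1-Gtl2 locus. All groups share the preparation: marrow cells were treated with cycloheximide, which arrests ribosomes on mRNA, and their polysomes were fractionated by sucrose gradient centrifugation.

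An antibody consists of paired heavy and light chains, and the constant region of the heavy chain sets its class. B cells first make IgM from Ighm, and class switching later joins the same variable region to a downstream constant gene, which gives IgG, IgE or IgA. Plasma cells, many of which live long in the bone marrow, secrete antibody and devote much of their translation to immunoglobulin chains. Jchain encodes the peptide that links IgM and IgA into polymers, and Mzb1 encodes an endoplasmic reticulum protein that helps assemble IgM.

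The IgG subclasses are told apart by sequence, so the part in which they differ most plainly is shown. This is the hinge exon, a short coding exon (exon number 2 of each gene) between the first and second constant domains. The sequences are from GENCODE M21 transcripts (GRCm38, minus strand), and capitals mark in-frame TGT and TGC codons, which encode the cysteines that can bridge heavy chains.
Ighg3: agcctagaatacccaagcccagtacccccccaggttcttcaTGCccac
Ighg1: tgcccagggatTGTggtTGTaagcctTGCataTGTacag
Ighg2b: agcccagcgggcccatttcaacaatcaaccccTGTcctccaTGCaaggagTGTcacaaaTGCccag
Ighg2c: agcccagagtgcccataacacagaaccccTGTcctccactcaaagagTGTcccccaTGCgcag
The exons lie at chr12:113360529-113360576, chr12:113329844-113329882, chr12:113307261-113307326 and chr12:113288263-113288325, in that order. They are 48, 39, 66 and 63 bases long and hold 1, 4, 4 and 3 such codons.

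Over the whole coding part of the secreted transcripts, Ighg2b and Ighg2c were the closest pair, with 85.9% identical bases, whereas Ighg1 and Ighg2b had 76.9% and Ighg3 and Ighg1 75.7%. Of all stretches of 50 bases in the secreted transcripts, 5.26% in Ighg2b and 5.27% in Ighg2c occurred in both genes, and 0% of those in Igkc, Ighm, Ighg1, Ighg3, Igha and Jchain occurred in a transcript of any other annotated gene. No stretch of 100 bases was shared between Ighg2b and Ighg2c. No label states the read length, and exons outside the secreted transcripts were not compared, so the division of counts between these 2 genes is uncertain by an unknown part. Mzb1 differed from the rest. On the same strand, 695 of its exon bases overlap a gene annotated as SPATA24 whose identifier is not among those counted, and 75.7% of its stretches of 50 bases also occur there.

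The libraries were shallow and unlike each other. Gene-assigned counts numbered 64547 (WT 1), 239429 (WT 2) and 125871 (Mat KO), and the genes mt-Rnr1, mt-Rnr2, Lars2 and CT010467.1 took 67.6%, 99.0% and 88.5% of them. Outside these 4 features, 20903, 2301 and 14430 counts remained, and shares below are per 10000 of these other counts. With 3 counts taken as the limit of a count of 0, a gene at 0 could lie at up to 1.44, 13.04 and 2.08 per 10000. Intervals are 95% Wilson intervals and, like these limits, cover counting error only, since reads without molecular identifiers are not independent molecules. Meg3 (Gtl2), a noncoding RNA of the locus in the series title, had 28, 0 and 0 counts, so it does not separate WT 2 from the Mat KO library. Marrow markers were found in WT 1 alone: the 10 neutrophil genes had 494, 0 and 0 counts and the 8 erythroid genes 425, 0 and 0. Every result on the 9 genes therefore rests on WT 1.

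Immunoglobulin transcripts were counted in WT 1, while the other libraries together gave a single read. Summed, the 9 genes reached 183 counts in WT 1, against 0 in WT 2 and 1 for Mat KO. Their share was 87.5 per 10000 other counts in WT 1 (interval 75.8 to 101.1), under the limit of 13.04 in WT 2, and 0.693 for Mat KO (interval 0.122 to 3.92). Because the 9 genes were chosen with earlier results of these data known, the shares that follow are a description and no test. Of the 9 genes, 7 had a count in WT 1, against 8.91% of all identifiers and 19.4% of protein-coding and immunoglobulin constant genes. Of these 7, 6 were at 0 in both other libraries, against 89% of all genes counted in WT 1, a share near theirs. No member had a lower count in the Mat KO library than in both WT libraries, against 0.4% of identifiers, because WT 2 was at 0 for all of them. The WT and Mat KO groups thus overlapped for every member.

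**Figure D1:**
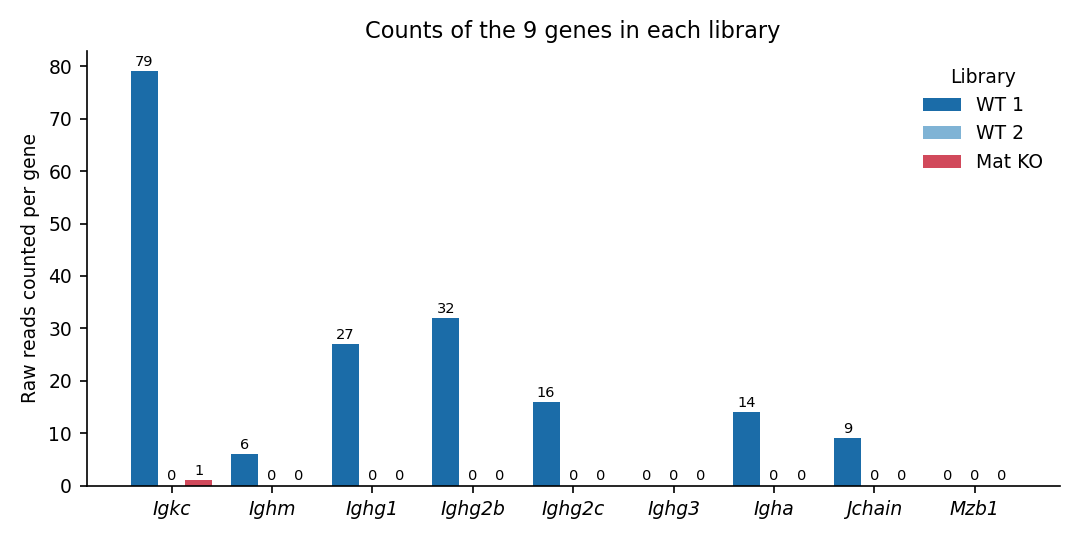
Raw read counts (y axis) of the 9 genes (x axis) in the 3 libraries, 1 bar per library with its count above it. WT 1 holds 183 of the 184 counts, led by Igkc at 79, and the bar of Igkc at 1 is the only one of the Mat KO library above 0.

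Igkc encodes the constant region of the kappa light chain, which most mouse antibodies carry (ENSMUSG00000076609, GRCm38 chromosome 6 from 70726435 to 70726966, plus strand). Igkc had 79 counts in WT 1, against 0 in WT 2 and 1 for Mat KO. It was the highest of the 9 genes and ranked 25 by counts among all genes of WT 1. At 37.8 per 10000 other counts in WT 1 (interval 30.3 to 47.1), it lay at least 2.90-fold above the limit in WT 2. Of the 25 genes with at least 79 counts in WT 1, 10 (40%) were likewise at 0 in WT 2, and 11 (44%) had at most 1 count in the Mat KO library. Of the lambda constant genes, Iglc1 had 1, 0 and 0 counts, and Iglc2, Iglc3 and Iglc4 had 0 in every library. Kappa thus made up 98.8% of the light chain constant counts of WT 1 (79 of 80, interval 93.3 to 99.8). Iglc2 and Iglc3 share 38 and 93 exon bases with other counted genes, and 7.72% and 22.3% of the stretches of 50 bases in their transcripts occur in another gene, so some of their reads could be left out of the counts. The part of this in the kappa share was not tested.

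Among heavy chains, the switched classes outnumbered IgM. Ighg2b, the constant gene of IgG2b (chromosome 12 from 113302965 to 113307933), had 32, 0 and 0 counts. Ighg1, of IgG1 (113325240 to 113330523), had 27, 0 and 0. Ighg2c, of IgG2c (113285325 to 113288932), had 16, 0 and 0. For each of these IgG genes WT 1 alone was above 0, and both other libraries were at 0. Igha, the constant gene of IgA, the main antibody of mucosal surfaces (113254830 to 113260236), had 14, 0 and 0 counts. Ighm, of IgM (113418558 to 113422730), had 6, 0 and 0. Ighg3, of IgG3 (113356224 to 113361232), had 0 in every library, although the table lists it.

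Set against the limit of a count of 0 for Mat KO, WT 1 held at least a 7.36-fold higher share for Ighg2b, 6.21-fold for Ighg1, 3.68-fold for Ighg2c, 3.22-fold for Igha and 1.38-fold for Ighm. These bounds take the share of WT 1 as observed. The interval of Ighm in WT 1 (1.32 to 6.26 per 10000) reached below the limit of 2.08 for Mat KO. Against WT 2, Ighg2b lay at least 1.17-fold above the limit of 3 counts, while its interval in WT 1 (10.8 to 21.6 per 10000) reached below it. The Wilson interval of a count of 0 in WT 2 reaches 16.7 per 10000, above the 15.3 of Ighg2b in WT 1. Ighg2b was therefore not clearly separated between the WT libraries. Ighg1, Ighg2c, Igha, Ighm and Jchain had shares in WT 1 of 12.9, 7.65, 6.70, 2.87 and 4.31 per 10000, all under the 13.04 that WT 2 could hide. For these 5 genes no difference between the WT libraries was detectable at this depth.

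The 8 heavy chain constant genes lie on the minus strand of chromosome 12 over 167.9 kb, from Ighm through Ighd, Ighg3, Ighg1, Ighg2b, Ighg2c and Ighe to Igha. The genes nearest to the variable segments, Ighm and Ighd, had 6 and 0 counts in WT 1, and Ighg3, the next in order, had 0. The counts lay mainly in the middle of the cluster, in Ighg1, Ighg2b and Ighg2c, which begin 92.2, 114.8 and 133.8 kb downstream of the start of Ighm. Ighe, the constant gene of IgE, had 1 count, and Igha at the far end had 14.

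**Figure D2:**
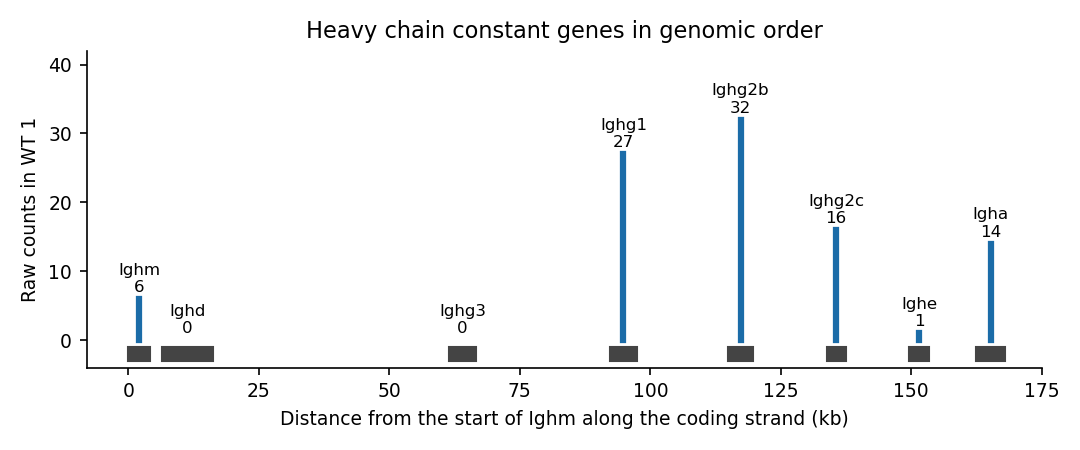
The heavy chain constant genes in genomic order: distance in kb from the start of Ighm along the coding strand (x axis) and raw counts in WT 1 (y axis, blue lines with the count), with gene spans as grey boxes. The 3 IgG genes in the middle hold 75 of the 96 counts, and Ighd and Ighg3 hold 0.

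Of the 96 heavy chain constant counts of WT 1, 75 were IgG, which is 78.1% (interval 68.9 to 85.2). Ighg2b took 33.3% (24.7 to 43.2), Ighg1 28.1% (20.1 to 37.8), Ighg2c 16.7% (10.5 to 25.4), Igha 14.6% (8.89 to 23.0) and Ighm 6.25% (2.90 to 13.0). The intervals of Ighg2b and Ighg1 overlap, as do those of Ighg1, Ighg2c and Igha, and of Igha and Ighm, so neighbours in this order are not separated at this depth. The interval of Ighm lies below those of Ighg1 and Ighg2b. Ighd, the gene of IgD on naive B cells, and Ighg3 were at 0 of 96, which allows a share of up to 3.13% each. IgG, IgE and IgA together took 93.8% (90 of 96, interval 87.0 to 97.1). Within IgG, Ighg3 was at 0 of 75, which allows up to 4%. These shares describe 1 library, with no replicate that holds such counts.

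**Figure D3:**
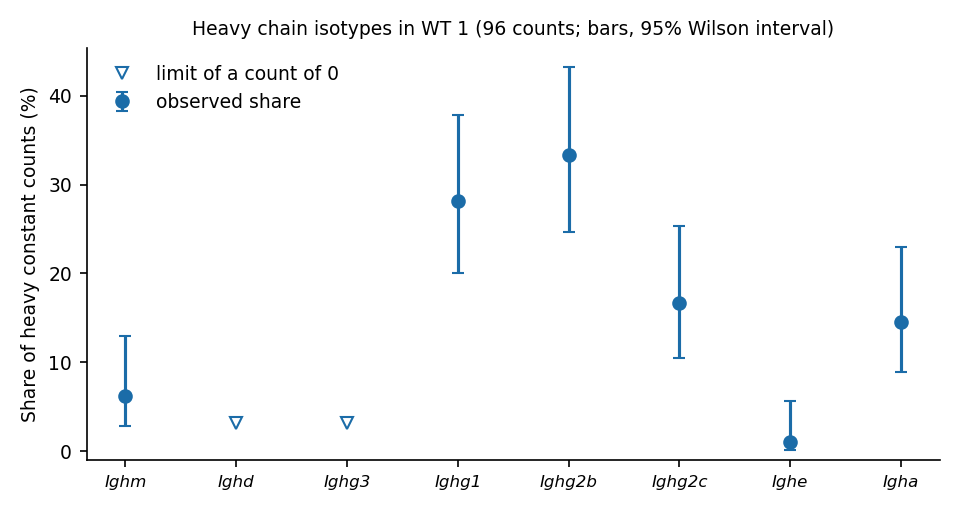
Share of each heavy chain constant gene (x axis) in the 96 heavy constant counts of WT 1 (y axis, percent), as points with 95% Wilson intervals, with open triangles at the limit of a count of 0. Ighg2b at 33.3% and Ighg1 at 28.1% lie above Ighm at 6.25%, and their intervals do not reach its interval.

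Levels can be compared between genes only per length. Per kilobase of merged exons, Igkc had 148 counts in WT 1, Ighg2c 12.1, Ighg2b 11.9, Ighg1 10.4, Igha 5.25, Jchain 3.58 and Ighm 3.18. Merged exons include the membrane exons, and for Ighg2c these are annotated with almost no untranslated part, so its merged length is 1326 bases against 2678 for Ighg2b. Per kilobase of the transcript that encodes the secreted form, Ighg2b had 28.7 counts, Ighg1 25.1, Ighg2c 14.4, Igha 12.7 and Ighm 4.02, with Jchain at 6.46 on its single coding transcript. The order of Ighg2b and Ighg2c therefore turned with the length used. IgG remained at 79.2% of the heavy chain level per kilobase of merged exons, with Ighd and Ighe included. Per kilobase of secreted transcript, over the 6 heavy chain members alone, IgG was at 80.3%. Counts per gene do not separate secreted from membrane transcripts. Igkc lay at 1.75 times the summed level of the 6 heavy chain members per kilobase of secreted transcript, at 3.46 times per kilobase of merged exons and at 0.832 times in raw counts.

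**Figure D4:**
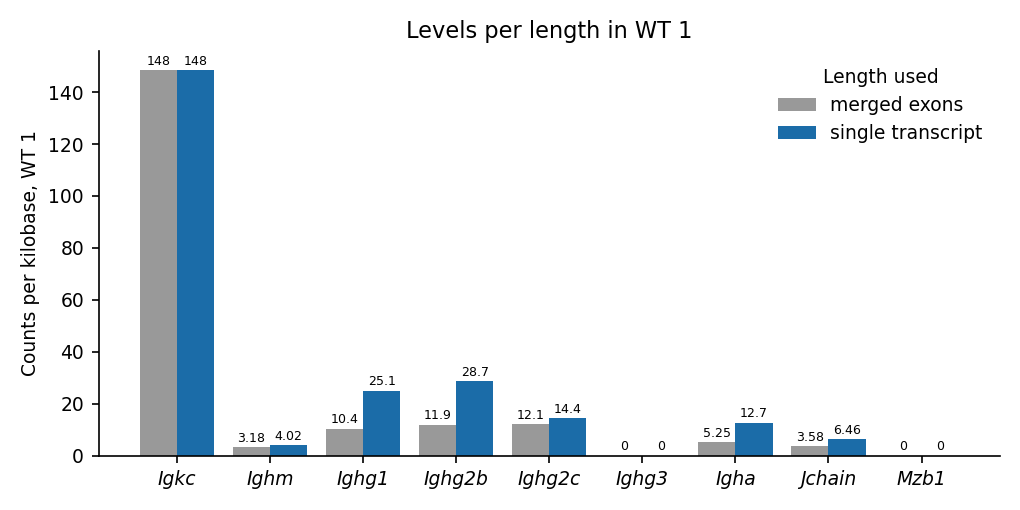
Counts per kilobase in WT 1 (y axis) of the 9 genes (x axis), over merged exons (grey) and over 1 transcript, the secreted form for the heavy chains (blue). Igkc stands at 148 on both lengths, and Ighg2b rises from 11.9 to 28.7 where Ighg2c goes from 12.1 to 14.4.

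The partners of secreted antibody were low. Jchain (chromosome 5 from 88519809 to 88527891) had 9, 0 and 0 counts, a share in WT 1 at least 2.07-fold above the limit in the Mat KO library. Its 9 counts stood beside 20 of Igha and Ighm, the classes it joins. Mzb1 (chromosome 18 from 35647267 to 35649367) had 0 in every library, which allows up to 1.44 per 10000 in WT 1. Reads that fall on 2 overlapping counted genes were not counted for either. In GENCODE M21, Mzb1 shares 0 exon bases with counted genes. The annotation release behind the counts is not stated, and whether overlap touched Mzb1 was not tested.

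Variable segments were counted far less often than constant regions. Of the 255 annotated functional variable, diversity and joining segment genes of the immunoglobulin loci, 6 had a count in WT 1, with 14 counts in all, and 0 had one in WT 2 or the Mat KO library. The heavy chain segments were Ighv1-4 with 5 counts, Ighv2-2 with 4, Ighv1-34 with 2 and Ighv2-9-1 with 1, and the kappa segments Igkv4-50 and Igkv3-2 had 1 each. This was 12 heavy chain variable counts beside 96 constant counts, and 2 kappa variable counts beside 79. The variable segments form large families of similar sequence, and reads aligned to several places, 7.44% of those recorded in WT 1, were outside the counts. So were reads on several overlapping genes, 33.5%, and reads on no counted gene, 43.9%. Their part in this was not tested.

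The other B lineage genes listed here had few counts, all in WT 1. Of all genes counted in WT 1, 89% were likewise at 0 in both other libraries. Among protein-coding and immunoglobulin constant genes, 19.4% had a count in WT 1. Of 16 B cell receptor and surface genes, 4 had a count, 8 in all: Cd72, a coreceptor, had 4, Cd79a, the signalling chain of the B cell receptor, 2, and the inhibitory receptor gene Cd22 and the B cell transcription factor gene Pax5 1 each. Ms4a1 and Cd79b were at 0. Of 14 plasma cell identity genes, 1 had a count, the coactivator gene Pou2af1 with 1. The regulators Prdm1, Xbp1 and Irf4 and the surface markers Sdc1 and Tnfrsf17 were at 0. Of 10 genes of B cell precursors, Ebf1 had 1 count, and Rag1, Dntt and the surrogate light chain genes Vpreb1 and Igll1 were at 0. Per 10000 other counts, the B cell receptor list lay at 3.83 in WT 1 (1.94 to 7.55) and the plasma cell identity list at 0.478 (0.0844 to 2.71), against 87.5 for the 9 genes. In bulk RNA, fewer cells of a type and less RNA per cell cannot be told apart.

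Genes of the secretory pathway on which plasma cells rely, but which other cells use too, had 109, 5 and 12 counts, from 18, 3 and 2 of the 31 matched genes. P4hb, a disulfide isomerase gene, had 32, 0 and 0. Pdia3, another of that family, had 12, 2 and 0, and the chaperone gene Hsp90b1 10, 0 and 0. Hspa5 (BiP), the chaperone that holds unassembled heavy chains, had 10, 2 and 11, so it was counted in all libraries while the heavy chains were not. The secretory pathway list lay at 52.1 per 10000 other counts in WT 1 (43.2 to 62.9), 21.7 in WT 2 (9.29 to 50.8) and 8.32 for Mat KO (4.76 to 14.5).

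Transcripts of other cell types also differed between the libraries. The 10 macrophage and monocyte genes had 80, 0 and 0 counts, from 7, 0 and 0 of the 10. The lysozyme gene Lyz2 led with 58, 0 and 0, while Csf1r had 1, 0 and 0, and Adgre1, Cd68 and Ctss were at 0. T and NK cell genes had 1, 0 and 1, with Cd3e and Cd8a at 0. Genes of liver had 540, 26 and 0, from 10, 2 and 0 of the 10 listed, with Alb at 176, 14 and 0, and pancreatic acinar genes had 1, 15 and 753, from 1, 8 and 12 of the 12 listed, with Ctrb1 at 0, 3 and 238. The summed level of liver genes was 258 per 10000 in WT 1, 113.0 in WT 2 and under 2.08 for Mat KO, and that of pancreatic genes 0.478, 65.2 and 522. The part of these transcripts in the immunoglobulin result was not tested. With 1 Mat KO library, genotype and library content cannot be told apart.

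**Figure D5:**
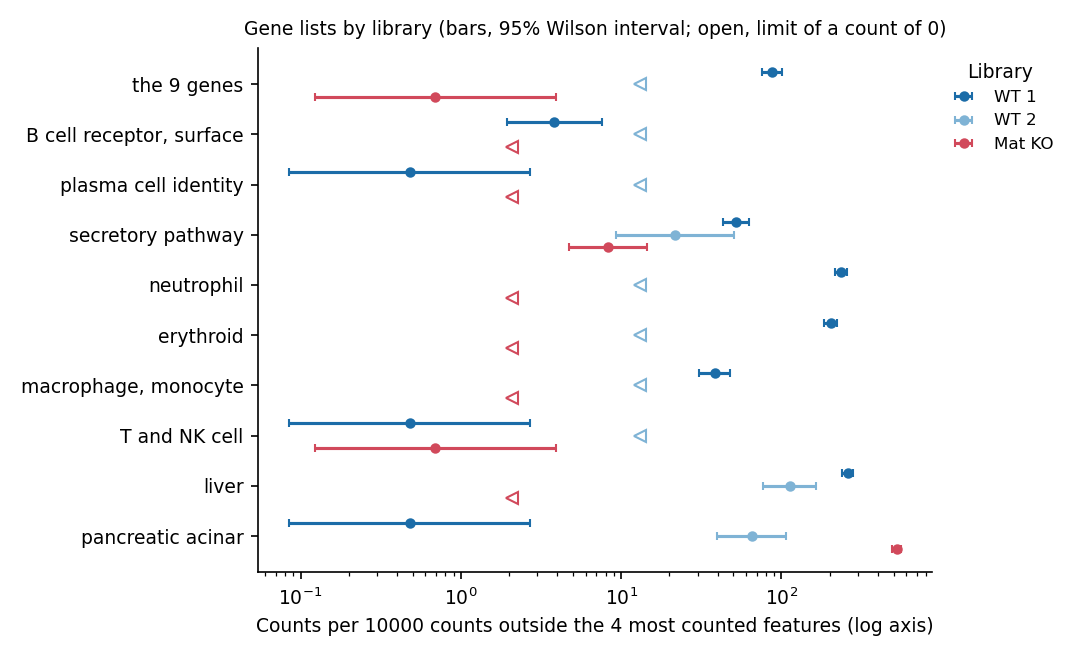
Summed counts of gene lists (y axis) per 10000 counts outside the 4 most counted features (x axis, log scale) in each library, as points with 95% Wilson intervals, with open triangles at the limit where a list has 0 counts. In WT 1 the liver list lies furthest to the right at 258, followed by the neutrophil list at 236, the erythroid list at 203 and the 9 genes at 87.5. The pancreatic list is at 522 in the Mat KO library.

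The genes with the pattern nearest to Igkc were drawn from unlike groups. By Euclidean distance of log2(CPM + 1) over the 3 libraries, with CPM taken over gene-assigned counts, the 5 nearest outside the immunoglobulin loci were C3, a complement gene (39, 0 and 1 counts, distance 1.02), Rps9, a ribosomal protein gene (36, 0 and 1, 1.13), Aldh2, a mitochondrial aldehyde dehydrogenase gene (30, 0 and 1, 1.39), Dcn, a matrix proteoglycan gene (29, 0 and 1, 1.44), and Rps3a1, a ribosomal protein gene (25, 0 and 1, 1.66). All 5 had exactly 1 count in the Mat KO library, as Igkc did, so this likeness turns on single reads.

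The test across genes called no difference between Mat KO and WT where it could be run. Its spread came only from WT 1 against WT 2, and 346 of the 437 genes tested were at 0 in WT 2. It therefore cannot decide whether any of the 9 genes differed. Of them, 4 passed the filter on low counts, all through WT 1, and 0 were called by edgeR's quasi-likelihood test at a false discovery rate of 0.05, against 0% of the 437 genes tested, of which 0 had an unadjusted p under 0.05. The log2 fold change of Mat KO against WT was -4.58 for Igkc (standard error 5.71), -3.46 for Ighg1 (4.45), -3.68 for Ighg2b (4.56) and -2.79 for Ighg2c (3.91), and the adjusted p from edgeR was 0.729 for each. The median over these 4 was -3.57, beside -0.27 over all tested genes. With genes at 0 in the Mat KO library set to 3 counts, the median over these 4 was -2.61. That value was taken from raw shares of other counts against the pooled WT libraries, not from the fit, so it is not on the scale of the -0.27. These 4 genes passed the filter through WT 1 and had 0 or 1 count in the Mat KO library. They therefore had to take negative values, so these medians are no support for a difference. With WT 1 left out, Ighg1, Ighg2b and Ighg2c had no counts to compare, and Igkc had a log2 difference of 0.34, from 1 count against 0. The Mat KO library has no replicate, the WT libraries are not said to be separate mice, and p-values then measure only the spread between these libraries, which may be technical.

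The ratio of the summed share of the 9 genes in WT 1 to that in the Mat KO library was 126 on the scale of other counts, with an exact counting interval from 22.4 to 5017. It was 357 per gene-assigned counts and 78.1 per nuclear protein-coding and immunoglobulin counts. The gene-assigned scale includes the 4 most counted features, which took 67.6% of WT 1, 99.0% of WT 2 and 88.5% of the Mat KO library. Folds on that scale therefore also carry the difference in these features. WT 1 lay at least 6.71-fold above WT 2 on the first scale, 226-fold on the second and 3.96-fold on the third. The WT libraries thus differed from each other in the same direction as WT 1 and the Mat KO library.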

How the data were processed

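The authors deposited raw counts per Ensembl gene, with no normalization, for 48795 identifiers and 5 summary lines, in 3 libraries. The build GRCm38 and the tools HTSeq 0.11.2, HISAT2 2.1.0 and Trimmomatic were used, per the submitters' processing notes. No label states the annotation release, strand setting or read length. Reads assigned to genes were 15.1%, 11.8% and 9.99% of those recorded in WT 1, WT 2 and Mat KO, and summary lines entered no library size. Reads on several overlapping genes were 33.5%, 74.3% and 66.1%. Reads on no counted gene were 43.9%, 9.68% and 19.6%, the largest class in WT 1.

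Symbols, exons and transcript sequences came from GENCODE M21, which matched 48435 identifiers. Genes were tested with edgeR 4.0.16 (R 4.3.3), using its quasi-likelihood test, TMM factors, filterByExpr (minimum count 10, minimum total 15), prior count 2 and Benjamini-Hochberg adjustment over all tested genes, which leaves 1 residual degree of freedom and assumes that the lone Mat KO library varies like WT. Standard errors are the absolute log2 fold change over the square root of F. The script was also run on simulated data, and no result here rests on that run. DESeq2 1.42.0 and limma 3.58.1 were alternatives, and intervals came from SciPy 1.17.1. The members and 13 lists (161 of 162 symbols matched) were chosen with earlier results of these data known. Named genes were all members, up to 4 counted genes per list with the most counts, up to 3 segments per locus, and the 5 genes nearest to Igkc. Ighv2-9-1 and the listed genes named at 0 or beyond those 4 were chosen after their values were seen.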

Additional observations from a re-analysis of the deposited data

How the results depend on the processing

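All values of the 9 genes rest on WT 1. The count of genes called and the count of members called stayed at 0 under each alternative that could be run: DESeq2-type size factors, total counts alone, library sizes without the 4 most counted features, no filter on low counts, a mean of at least 50 counts (20 genes, with no member among them), DESeq2 and limma-voom, with 0, 0, 33, 0, 0, 7 and 21 genes at an unadjusted p under 0.05. Upper quartile scaling could not be fitted because the upper quartile of WT 2 was 0. Each fit that ran had the same WT libraries as its only replicates, so these counts of 0 cannot decide on a difference. Over these alternatives the log2 fold changes of Igkc, Ighg1, Ighg2b and Ighg2c stayed negative, from -6.44 to -2.04, with adjusted p from 0.365 to 0.891. Leaving out a WT library leaves 1 against 1, values with no test: without WT 2, Igkc was at -5.55, and without WT 1 it turned to 0.34. The summed share of the 9 genes in WT 1 was 28.4 per 10000 gene-assigned counts, 97.4 per 10000 nuclear protein-coding and immunoglobulin counts and 95.2 with all immunoglobulin segments. The IgG share was 79.2% per kilobase of merged exons and, in raw counts, 78.9% without Ighd and Ighe. It was 80.3% per kilobase of secreted transcript over the 6 heavy chain members alone, a setting chosen after seeing the data. The other scales of the ratio to the Mat KO library were also chosen after seeing the data. The kappa share was 98.5% per kilobase and 98.8% with variable and joining segments. No paired analysis was possible because the labels number the WT libraries but not the Mat KO one. The depth of WT 2, with 2301 other counts, limits what its counts of 0 can show.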

Other observations

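Receptors and carriers of antibody were counted in WT 1 alone, from 3 of 10 listed genes with 43, 0 and 0 counts. A count in WT 1 was found for 19.4% of protein-coding and immunoglobulin constant genes. Of all genes counted in WT 1, 89% were at 0 in both other libraries. B2m, the light chain of class I molecules and of the neonatal Fc receptor, had 34, 0 and 0, Fcgrt, the heavy chain of that receptor, 5, 0 and 0, and Pigr, which carries polymeric IgA across epithelia, 4, 0 and 0. The Fc gamma receptor genes Fcgr1, Fcgr2b, Fcgr3 and Fcgr4 were at 0 in every library.

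Of 12 genes of class switching and somatic hypermutation, 4 had a count in WT 1, against 19.4% of protein-coding and immunoglobulin constant genes. They had 5 counts in all: Trp53bp1, a DNA break response gene, had 2, and Rif1, Ung and Xrcc6 had 1 each.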
